A study of Rattus norvegicus with 12 samples.

Results

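The genes described here encode the protein machinery of focal adhesions and of the actin cytoskeleton. They are 49 rat genes taken by name, namely focal adhesion plaque proteins, stress fibre proteins and actin regulators, with smooth muscle actin and the integrins kept apart. Of the 49 genes, 46 had a row in the deposited table of 24660 genes, and all 46 passed the filter on low counts that left 14184 genes for testing. The expression of Synpo, Palld and Myl12b was not analysed here.

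The study sequenced RNA from NRK-52E, an established line of wild-type rat kidney cells that the labels describe as tubular epithelial. There were 4 groups of 3 libraries. The control group is labelled as control, with no agent named. The TGF-beta1 group received transforming growth factor beta 1, a cytokine used in culture to model renal fibrosis, at 10 µg/ml as the label states it, for 24 h. The other two groups received the same TGF-beta1 treatment and then extracellular vesicles at 500000000 particles/ml for 48 h, of the kind labelled 2D-EVs in one group and 3D-EVs in the other. The cells that released the vesicles, the time at which the groups without vesicles were harvested, and whether libraries of a group came from separate cultures are not stated in the labels. The p-values below therefore rest on the spread among the deposited libraries, which may be technical.

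Focal adhesions are plaques where integrin receptors couple the extracellular matrix to actin. Talin, kindlin and vinculin build the link, the kinases FAK and Src signal from it, and paxillin, ILK and parvin act as scaffolds. Stress fibres that end there are bundles of actin, alpha-actinin, tropomyosin and non-muscle myosin II, decorated with zyxin and with proteins carrying LIM domains. Actin monomers that are drawn into filaments release cofactors of the transcription factor SRF, which binds a DNA element called the CArG box and drives many actin genes. Epithelial cells that take on a contractile, fibroblast-like form under TGF-beta1 are known for prominent stress fibres.

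The CArG box was therefore looked for in RefSeq promoters (build GRCr8) from 250 bases before to 50 bases after each annotated start, as CC, then 6 letters that are each A or T, then GG, which reads the same way on both strands. It was present for 5 of the 40 members found in the promoter table (12.5%), against 485 of 27457 genes (1.77%). These 40 were matched from all 49 listed genes, and they include Palld, whose expression was not analysed. The 5 windows are shown because they carry the boxes found among the members, with the box in capitals, 5′ to 3′ on the strand of the gene. The Actg1 window lay at chr10:106120997-106121076, minus strand, the Fhl1 window at chrX:139638359-139638438, plus strand, the Fhl2 window at chr9:52923340-52923419, minus strand, the Lima1 window at chr7:132880508-132880587, minus strand, and the Srf window at chr9:21923980-21924059, plus strand.
Actg1: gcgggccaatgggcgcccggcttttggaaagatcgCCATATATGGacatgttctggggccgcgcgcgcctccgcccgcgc
Fhl1: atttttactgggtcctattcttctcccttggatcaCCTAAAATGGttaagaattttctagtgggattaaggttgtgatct
Fhl2: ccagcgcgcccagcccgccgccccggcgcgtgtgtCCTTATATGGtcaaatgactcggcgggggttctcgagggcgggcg
Lima1: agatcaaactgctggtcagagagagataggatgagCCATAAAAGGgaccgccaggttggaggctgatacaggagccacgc
Srf: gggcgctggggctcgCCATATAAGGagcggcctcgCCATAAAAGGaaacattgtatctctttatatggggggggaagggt
The Actg1 box began 90 bases before the start site and the Fhl1 box 102 bases before it. Srf, the gene of the factor itself, had 2 boxes, beginning 81 and 61 bases before its start. Fhl2 had a further box before another annotated start. The AP-1 element TGACTCA, read on both strands, was found for 1 of the 40 members (Myh9) and 1384 of the 27457 genes, and the TEAD element CATTCC, also read on both strands, for 8 of the 40 and 4128 of the 27457. The 5 genes with a CArG box did not share a direction in the comparison of TGF-beta1 with control given below, where Fhl1 and Actg1 were called higher, Lima1 was called lower, and Fhl2 and Srf did not pass the test.

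Library totals ran from 32888125 to 39754319 counts, so that 1 count was worth 0.0255 to 0.0305 CPM, the unit that divides counts by the scaled library size. Levels below are CPM after TMM scaling, which corrects totals for composition. The TMM factors were 1.02 to 1.03 in control and 0.989 to 0.992 in TGF-beta1. They were 0.997 to 1 with 2D-EVs and 0.983 to 0.988 with 3D-EVs. Scaling by them lowers the control levels relative to those of the other groups. Of the 13 tubular markers listed, 12 had a row. Krt8 was strongly expressed (1007 to 1252 CPM), Ggt1 and Aqp1 were expressed, Epcam was at 0 counts in every library, Krt18 reached at most 5 counts, Cdh1 at most 30 and Slc34a1 at most 3, so most defining tubular markers were nearly absent. The immune markers Ptprc, Itgam, Tyrobp and C1qa and the endothelial marker Emcn were at 0 counts in every library. Of the other immune markers listed, Cd68 had 96 to 162 counts, Cd3e 6 to 25 and Adgre1 0 to 3. The summed level of the 7 smooth muscle markers moved with the groups: it was 1134 to 1168 CPM in control, 1645 to 1667 in TGF-beta1, 1398 to 1458 with 2D-EVs and 1606 to 1649.7 with 3D-EVs. Of these, Acta2 and Tagln gave most of the sum, while Myh11 stayed at 80 to 137 counts and Lmod1 at 0 to 9. The 12 tubular markers with a row summed to 1190.3 to 1219.7 CPM in control, 1497 to 1561 in TGF-beta1, 1476 to 1514 with 2D-EVs and 1462 to 1522 with 3D-EVs, and with TGF-beta1 Ggt1 and Krt8 were called higher (log2 fold changes 0.88 and 0.26) and Aqp1 lower (-0.40; edgeR). The 8 fibroblast markers summed to 217 to 228 CPM in control, 147 to 164 in TGF-beta1, 162 to 170 with 2D-EVs and 163 to 166 with 3D-EVs. Most of the difference in that sum came from Col14a1, with group means of 199 CPM in control and 130 CPM in TGF-beta1 (log2 fold change -0.62, called). Pdgfrb averaged 18.8 and 21.3 CPM (0.18, not called). With 3D-EVs against control, Pdgfrb was called higher (0.30), while Col14a1 and Cspg4 of the same list were called lower (-0.54 and -0.48). In that contrast the weakly expressed tubular marker Cdh1 was also called lower (-1.97), while Ggt1 and Krt8 were called higher (0.93 and 0.19). The endothelial markers summed to at most 13.0 CPM in the control libraries, 14.8 to 15.9 in TGF-beta1, 15.4 to 16.6 with 2D-EVs and 14.9 to 17.0 with 3D-EVs, and Egfl7 was called higher with TGF-beta1 (0.41). The part of these differences in the results below was not tested. In such bulk samples, fewer cells of a type and less RNA per cell cannot be told apart.

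TGF-beta1 was compared with control first, the contrast that addresses the cytokine treatment. If these groups also differed in culture or harvest, that cannot be told apart from the cytokine. The calls were small in size, and most were rises. Of the 46 genes, 25 were higher and 5 lower in TGF-beta1 (edgeR quasi-likelihood test, Benjamini-Hochberg adjusted p below 0.05 over 14184 genes), and 16 did not pass. The largest rise was 1.45-fold, in Pdlim1. Scaled by library totals only, 18 were higher and 6 lower, where 3386 of the 14184 genes were called in either direction. The falls numbered 2 without TGF-beta1 replicate 1 and 3 without control replicate 3. Among all genes tested 11.8% were called higher and 10.2% lower, against 54.3% and 10.9% of the 46 genes. The members were chosen with earlier results of these data known, so such shares, here and below, describe the list and do not test it. The median log2 fold change was 0.14, where that of all genes was -0.0050. Strongly expressed genes were called more often, and 40 of the 46 genes averaged at least 50 CPM. Of all 4328 genes at that level 23.8% were called higher and 12.8% lower, against 25 and 3 of these 40. At an unadjusted p below 0.05 there were 37 of the 46 genes and 33.0% of all genes, and 9 of the 46 were estimated below 0, against 50.9% of all genes. Of genes averaging at least 50 CPM 40.9% were estimated below 0, against 7 of the 40 members. In 32 of the 46 genes every TGF-beta1 library lay above every control library and in 6 every one lay below, where the shares over all genes were 19.1% and 18.9%. Among genes averaging at least 50 CPM those shares were 33.1% and 19.9%, against 31 and 4 of the 40 members. Together the 46 genes took 2.48%, 2.51% and 2.48% of the counts in the control libraries and 2.66%, 2.64% and 2.68% in the TGF-beta1 libraries.

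**Figure D1:**
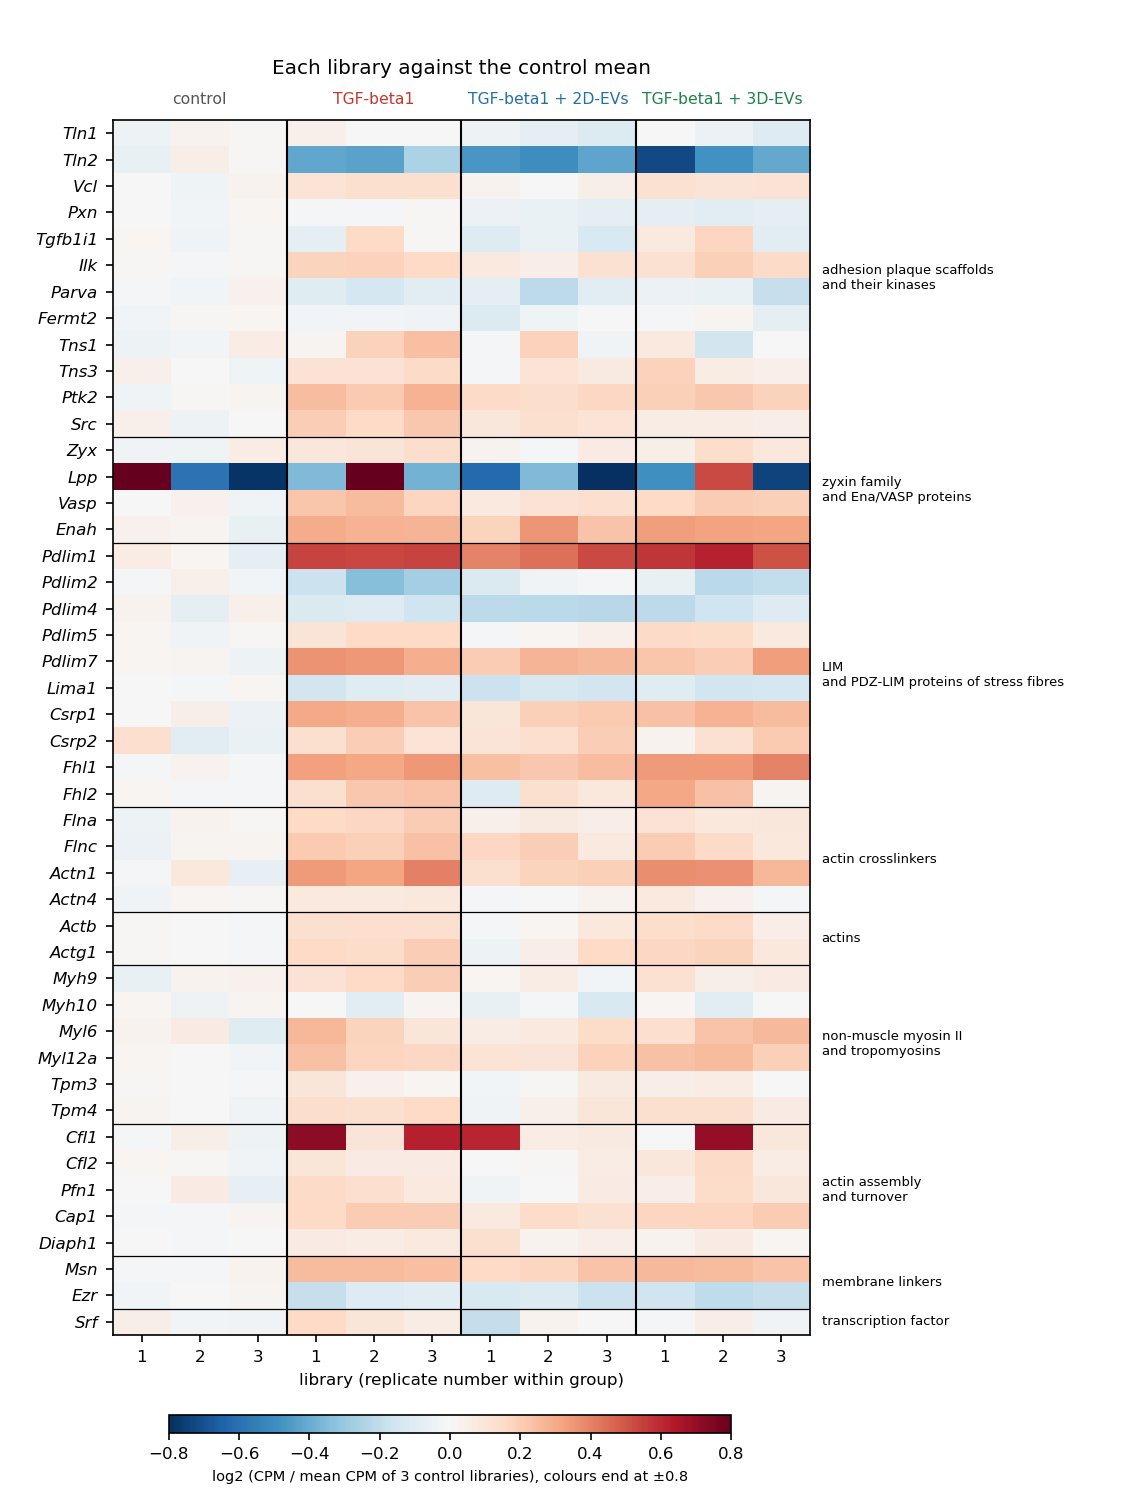
Each of the 46 genes (rows, grouped by role) in each of the 12 libraries (columns, by group), coloured by the log2 ratio of its CPM to the mean CPM of the 3 control libraries, with colours ending at ±0.8. Most rows turn higher from control to TGF-beta1, Tln2 and Ezr turn lower, and Cfl1 and Lpp differ between libraries of 1 group.

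Among the plaque scaffolds and their kinases, 5 of 12 rose and 1 fell. Ptk2, which encodes the focal adhesion kinase FAK, measured 277, 286 and 288 CPM in the control libraries and 337, 328 and 343 CPM in the TGF-beta1 libraries. All 3 treated libraries were above all controls, and the log2 fold change was 0.25 ± 0.029 (SE, edgeR adjusted p = 2.03e-05). Src, the kinase that partners FAK at adhesions, rose by 0.19 ± 0.031 (SE, edgeR adjusted p = 0.000372) on the log2 scale. Ilk, the integrin-linked pseudokinase that joins parvin and PINCH, rose by 0.17 ± 0.030 (SE, edgeR adjusted p = 0.000693). Vinculin reinforces the talin to actin link under load. Its gene Vcl read 508, 496 and 517 CPM in control and 547, 555 and 555 CPM in TGF-beta1, without overlap, a rise of only 1.09-fold, or 0.12 ± 0.027 (SE, edgeR adjusted p = 0.00361) on the log2 scale. The call for Vcl was lost when libraries were scaled by library totals only, with an edgeR adjusted p of 0.0636 and a range of 9.14e-05 to 0.0636 over the alternatives.

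Of the talin genes 1 fell and the other was not called. Talin opens integrins from the inside and is made from 2 genes. Tln1, the widely expressed form, stood at 383, 403 and 397 CPM in control and 405, 394 and 393 CPM in TGF-beta1, with overlap between the groups and a log2 fold change of 0.012 ± 0.033 (SE, edgeR adjusted p = 0.849). Tln2 measured 16.6, 17.9 and 17.5 CPM in control and 13.0, 12.9 and 14.5 CPM in TGF-beta1. Every TGF-beta1 library was below every control, and Tln2 fell by 0.37 ± 0.084 (SE) on the log2 scale (edgeR adjusted p = 0.0055), the largest fall among the 46 genes. Pxn, which encodes the scaffold paxillin, was at 279, 275 and 282 CPM in control and 276, 277 and 281 CPM in TGF-beta1, a log2 difference of -0.0042 ± 0.027 (SE, edgeR adjusted p = 0.937). Tgfb1i1, Parva, Fermt2 and Tns1 did not pass either, with log2 fold changes of 0.036, -0.11, -0.023 and 0.15. Tns3, a tensin that binds integrin tails, was called at 0.13 ± 0.043 (SE, edgeR adjusted p = 0.0414), and the call was lost when scaled by library totals only (0.228), with no low-count filter (0.0517), with a replicate block (0.0671), without control replicate 2 (0.093), without control replicate 3 (0.14), without TGF-beta1 replicate 1 (0.0679), without TGF-beta1 replicate 2 (0.0855) and without TGF-beta1 replicate 3 (0.123); the numbers in brackets are edgeR adjusted p, and over all alternatives, other tools included, adjusted p ran from 0.0216 to 0.228.

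Zyxin and the Ena/VASP proteins, which repair and lengthen stressed actin filaments, gave 3 rises among 4 genes. Vasp measured 237, 243 and 232 CPM in control and 277, 282 and 268 CPM in TGF-beta1. The groups did not overlap, and the log2 fold change was 0.22 ± 0.031 (SE, edgeR adjusted p = 0.000148). Enah, the Mena gene of the same family, measured 56.8, 56.3 and 53.1 CPM in control and 68.1, 67.2 and 66.9 CPM in TGF-beta1. Its rise was 1.22-fold, or 0.28 ± 0.046 (SE, edgeR adjusted p = 0.000366) on the log2 scale, without overlap. Zyx itself read 203, 202 and 215 CPM in control and 219.7, 222 and 228 CPM in TGF-beta1, without overlap and with a log2 fold change of 0.11 ± 0.036 (SE, edgeR adjusted p = 0.0402). That call was lost when scaled by library totals only (0.274), with no low-count filter (0.0562), without control replicate 1 (0.131), without control replicate 2 (0.13), without TGF-beta1 replicate 1 (0.0527), without TGF-beta1 replicate 2 (0.0859) and without TGF-beta1 replicate 3 (0.13), where brackets give the edgeR adjusted p, with a range of 0.0201 to 0.274 over all alternatives.

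The LIM-domain proteins of stress fibres held the largest called rise, that of Pdlim1, and 3 of the 5 falls. Pdlim1, whose protein CLP36 ties alpha-actinin to kinases, measured 106, 103 and 97.0 CPM in control and 149, 148 and 149 CPM in TGF-beta1. The log2 fold change of Pdlim1 was 0.54 ± 0.043 (SE, edgeR adjusted p = 4.55e-07), with no overlap. Fhl1, a protein made almost wholly of LIM domains, measured 178, 183 and 178 CPM in control and 226, 222 and 228 CPM in TGF-beta1. It rose by 0.33 ± 0.030 (SE, edgeR adjusted p = 1.73e-06) on the log2 scale, and its promoter window with a CArG box is printed above. Pdlim7, also known as enigma, measured 139, 139.6 and 134 CPM in control and 177, 174 and 168 CPM in TGF-beta1, a log2 fold change of 0.33 ± 0.039 (SE, edgeR adjusted p = 2.43e-05). Csrp1, a cysteine-rich protein that bundles actin, measured 265, 275 and 258 CPM in control and 329, 325 and 312 CPM in TGF-beta1, a log2 fold change of 0.27 ± 0.036 (SE, edgeR adjusted p = 6.4e-05). In each of these 4 genes the lowest treated library exceeded the highest control. Pdlim5 rose by 0.14 ± 0.030 (SE, edgeR adjusted p = 0.0035). Csrp2 and Fhl2 did not pass the test, with log2 fold changes of 0.15 and 0.19.

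The 3 falls in this class were smaller than its leading rises. Pdlim2, a PDZ-LIM protein that also acts as an adaptor for protein degradation in the nucleus, measured 24.8, 25.7 and 24.6 CPM in control and 22.2, 19.8 and 20.8 CPM in TGF-beta1. It fell by 0.26 ± 0.064 (SE) on the log2 scale (edgeR adjusted p = 0.00871), without overlap. Pdlim4, a further PDZ-LIM protein, measured 93.3, 87.0 and 94.3 CPM in control and 84.6, 85.3 and 81.9 CPM in TGF-beta1, and fell by 0.13 ± 0.040 (SE; edgeR adjusted p = 0.0359). This call was lost with a replicate block (0.0605), without control replicate 1 (0.132), without control replicate 3 (0.139), without TGF-beta1 replicate 1 (0.0734), without TGF-beta1 replicate 2 (0.0657) and without TGF-beta1 replicate 3 (0.135), adjusted p in brackets, over a range of 0.00382 to 0.139. Lima1, whose product EPLIN crosslinks filaments and slows their branching, measured 384, 380.1 and 389 CPM in control and 348, 359.8 and 362 CPM in TGF-beta1. It fell by 0.11 ± 0.029 (SE; edgeR adjusted p = 0.0137), and the call was lost without control replicate 3 (0.0546) and without TGF-beta1 replicate 1 (0.066), over a range of 0.000972 to 0.066.

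Of 4 actin crosslinkers 3 rose, and so did both actins. Actn1, the alpha-actinin that bundles stress fibres, measured 221, 236 and 213 CPM in control and 283, 278 and 295 CPM in TGF-beta1. Its log2 fold change was 0.35 ± 0.042 (SE, edgeR adjusted p = 2.78e-05), while the other non-muscle alpha-actinin, Actn4, had 0.081 ± 0.028 (SE, edgeR adjusted p = 0.0523) and did not pass. Filamins join filaments into networks. Flna measured 1052, 1103 and 1091 CPM in control and 1211, 1215 and 1246 CPM in TGF-beta1, a log2 fold change of 0.18 ± 0.026 (SE, edgeR adjusted p = 0.00018). Flnc measured 400.4, 420.3 and 419.8 CPM in control and 478, 471 and 486 CPM in TGF-beta1, a log2 fold change of 0.21 ± 0.038 (SE, edgeR adjusted p = 0.000906). For Actn1, Flna and Flnc the groups did not overlap. Actb, beta-actin, read 5812, 5769 and 5734 CPM in control and 6299, 6332 and 6312 CPM in TGF-beta1, without overlap. Actb rose by 0.13 ± 0.029 (SE, edgeR adjusted p = 0.00504) on the log2 scale, and this call was lost when scaled by library totals only (0.0728), the highest adjusted p of a range of 0.000357 to 0.0728. Actg1, gamma-actin, read 3741, 3705 and 3681 CPM in control and 4147, 4114 and 4244 CPM in TGF-beta1, and rose by 0.17 ± 0.040 (SE, edgeR adjusted p = 0.00668). Actb and Actg1 encode nearly identical proteins, and how the authors' counting split reads between these genes was not examined.

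Non-muscle myosin II pulls on actin filaments and tropomyosins line them. Here 4 of 6 genes rose. Myh9, the heavy chain of myosin IIA, measured 1451, 1543 and 1551 CPM in control and 1640.4, 1696 and 1733 CPM in TGF-beta1. The groups did not overlap, and the log2 fold change was 0.16 ± 0.034 (SE, edgeR adjusted p = 0.00353). Myh10, the heavy chain of myosin IIB, was at 143, 138 and 144 CPM in control and 141, 134 and 144 CPM in TGF-beta1, with overlap and a log2 fold change of -0.020 ± 0.042 (SE, edgeR adjusted p = 0.784). Myl12a, a regulatory light chain, rose by 0.19 ± 0.030 (SE, edgeR adjusted p = 0.000318), with the caution that its near-identical neighbour Myl12b was not analysed here. Myl6, the essential light chain, was called at 0.18 ± 0.050 (SE, edgeR adjusted p = 0.0167), and the call was lost when scaled by library totals only (0.0746), without control replicate 3 (0.0819) and without TGF-beta1 replicate 1 (0.083), over a range of 0.00126 to 0.083. Tpm4 was called at 0.14 ± 0.032 (SE, edgeR adjusted p = 0.0053), and lost when scaled by library totals only (0.0606), the highest adjusted p of a range of 0.000202 to 0.0606. Tpm3 did not pass, at 0.048.

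Among the genes of actin assembly and turnover, 2 of 5 rose. Cap1, which recycles actin monomers with cofilin, rose by 0.19 ± 0.029 (SE, edgeR adjusted p = 0.000229) on the log2 scale. Pfn1, profilin, which loads monomers with ATP, was called at 0.12 ± 0.038 (SE, edgeR adjusted p = 0.0309), and the call was lost when scaled by library totals only (0.206), without control replicate 1 (0.0792), without control replicate 3 (0.139), without TGF-beta1 replicate 1 (0.102) and without TGF-beta1 replicate 2 (0.0917), over a range of 0.00772 to 0.206. Cfl2 and the formin gene Diaph1 did not pass, with log2 fold changes of 0.076 and 0.070. Srf measured 85.6, 81.9 and 81.4 CPM in control and 92.5, 88.6 and 86.6 CPM in TGF-beta1. The 3 treated values were above the controls, but the log2 fold change of 0.11 ± 0.051 (SE, edgeR adjusted p = 0.169) did not pass.

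Cfl1, cofilin 1, which severs filaments, had the second largest estimate of the 46 genes, 0.50 ± 0.18 (SE, edgeR adjusted p = 0.0639), and did not pass. It measured 427, 443 and 418 CPM in control, 704, 460.1 and 660.4 CPM in TGF-beta1, 654, 447 and 452 CPM with 2D-EVs and 428, 699 and 457 CPM with 3D-EVs. In 4 libraries it stood at 654 to 704 CPM and in the other 8 at 418 to 460.1 CPM, and both levels occurred in each group that received TGF-beta1. Lpp, a zyxin relative, was also uneven within groups, at 17.2, 6.51 and 5.68 CPM in control, 7.68, 18.3 and 7.53 CPM in TGF-beta1, 6.36, 7.67 and 4.76 CPM with 2D-EVs and 6.95, 14.1 and 5.86 CPM with 3D-EVs. The second 3D-EV library was high for both genes, and the other libraries high for one were not high for the other. Both genes were singled out after their values were seen. The cause of the split was not tested, and edgeR called neither gene in any of the 6 comparisons. Without Cfl1, the members took 2.44% to 2.47% of the counts in control and 2.59% to 2.62% in TGF-beta1.

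The membrane linkers moved in opposite directions. Moesin and ezrin tie actin to the plasma membrane, and ezrin is the form typical of microvilli of epithelia. Msn measured 667, 669 and 687 CPM in control and 805, 802 and 797 CPM in TGF-beta1, and rose by 0.25 ± 0.026 (SE, edgeR adjusted p = 8.55e-06). Ezr measured 642, 653 and 661 CPM in control and 573, 606 and 615 CPM in TGF-beta1, and fell by 0.12 ± 0.031 (SE; edgeR adjusted p = 0.0098). The fall of Ezr was not called without TGF-beta1 replicate 1 (0.0532), the highest adjusted p of a range of 0.000938 to 0.0532. Within a library, the count of Msn divided by that of Ezr was 1.04, 1.02 and 1.04 in control, 1.41, 1.32 and 1.30 in TGF-beta1, 1.26, 1.26 and 1.36 with 2D-EVs and 1.38, 1.42 and 1.38 with 3D-EVs. Such a ratio does not depend on the scaling of libraries. The 3 TGF-beta1 ratios were above all 3 controls, and so were those of both vesicle groups. The exact two-sided permutation p for TGF-beta1 against control was 0.1, the smallest that 3 against 3 libraries can give (0.1 adjusted over the 6 pairs examined).

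The same held for other related pairs of genes. All 6 ratios, that of Msn to Ezr included, are made of the counts tested above. They follow from those changes and add no evidence beyond them. How often other pairs of genes separate was not examined. The ratio of Tln1 to Tln2 was 23.0, 22.5 and 22.7 in control and 31.1, 30.6 and 27.1 in TGF-beta1. The ratio of Actn1 to Actn4 was 0.294, 0.307 and 0.277 in control and 0.352, 0.345 and 0.365 in TGF-beta1. The ratio of Pdlim1 to Pdlim4 was 1.14, 1.19 and 1.03 in control and 1.76, 1.73 and 1.82 in TGF-beta1, the widest shift of the 6 pairs. In these pairs, and in Myh9 to Myh10, each TGF-beta1 library was above each control library, whereas Actb to Actg1 was lower, at 1.55, 1.56 and 1.56 in control and 1.52, 1.54 and 1.49 in TGF-beta1. Each pair had an exact permutation p of 0.1. A count ratio compares the change of 2 genes and says nothing of which is the more abundant per molecule.

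**Figure D2:**
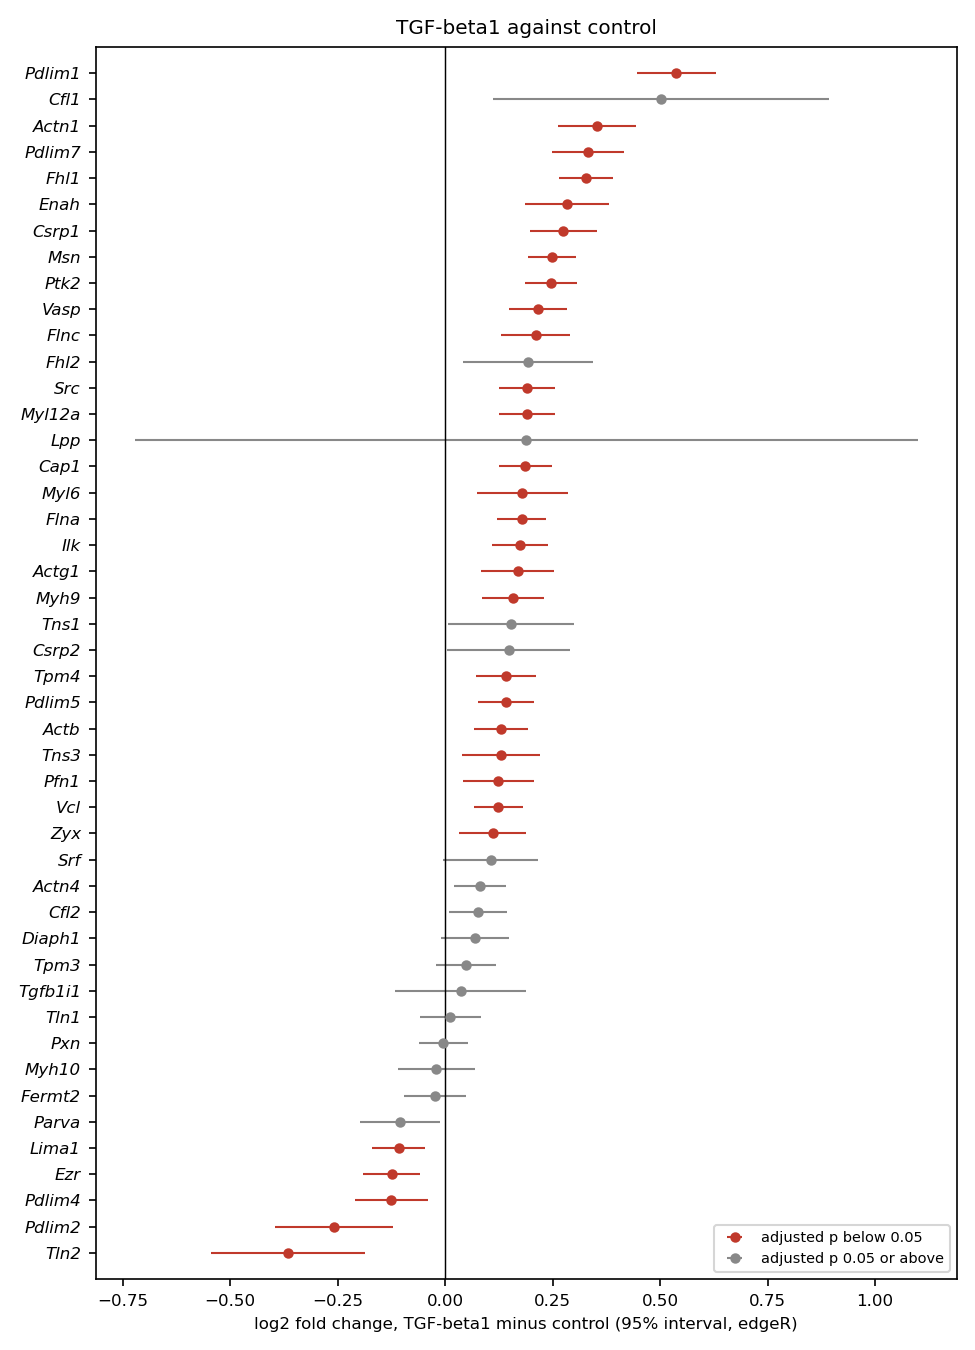
Log2 fold change of the 46 genes (rows) in TGF-beta1 minus control, with 95% confidence intervals from the edgeR fit. Red points passed an adjusted p of 0.05 (25 higher, 5 lower) and grey points did not, and the widest interval is that of Lpp, whose libraries differ within groups.

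In lists of the same pathways drawn up around the 46 genes, 105 of 110 genes were tested, and 29 were higher and 12 lower in TGF-beta1, with a median log2 fold change of 0.039. These are 27.6% and 11.4% of the 105, where all genes gave 11.8% and 10.2% and genes averaging at least 50 CPM gave 23.8% and 12.8%, so nothing particular is read from the shares. The sublists follow as a description, with genes named from those of smallest adjusted p and not by size of change. Log2 estimates ran from -0.37 to 1.48 among the other adhesion adaptors. Among the other actin binding genes they ran from -0.54 to 1.29. Of 24 other adhesion adaptors 8 rose (edgeR adjusted p below 0.05, log2 fold changes in brackets), among them Ptpn12 (0.24), Arhgef7 (0.21) and Ptpn11 (0.22). A further 3 fell, Sorbs3 by 0.37, Git1 by 0.13 and Tns2 by 0.10 on the log2 scale. Of 17 genes of the Arp2/3 and WAVE complexes, which branch actin filaments, 4 rose and none fell, with Arpc5 at 0.21, Cttn at 0.16 and Actr2 at 0.16. Of 31 other actin binding genes 12 rose and 4 fell, with Capg at 0.28 and Tpm2 at 0.20, and with Anln, Rdx and Sptan1 at -0.20, -0.11 and -0.12. Rdx encodes radixin, the relative of moesin and ezrin. Of 11 SRF cofactors and other SRF targets 1 rose, Elk3 by 0.30, and 2 fell, Mcl1 by 0.15 and Fos by 0.56. Fos is the best known early-response target of SRF.

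TGF-beta1 with 2D-EVs was compared with TGF-beta1 alone, the contrast that addresses the 2D-EVs. If these groups were harvested at different times, the vesicles and the further time in culture cannot be told apart. Nearly all of the 46 genes were estimated lower after 2D-EVs, and none passed the test gene by gene. The estimate was below 0 for 45 of 46 genes (97.8%), against 49.4% of all genes and 56.8% of the 4328 genes averaging at least 50 CPM. The estimates ran from -0.83 (Lpp) to 0.21 (Pdlim2) with a median log2 fold change of -0.086, where that of all genes was 0.0014. The number of genes called by edgeR was 0 of 46, and 0.0282% of all genes were called (4 genes). The smallest edgeR adjusted p was 0.169, for Flna. At an unadjusted p below 0.05 there were 25 of the 46 genes, against 7.09% of all genes. limma-voom called 0 of the 46, and DESeq2 called 4 lower (0.268% of all genes). The genes are measured in the same 6 libraries, so their estimates are not independent of each other. The TGF-beta1 libraries are also those compared with control above, so this contrast is not independent of that one.

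In 27 of the 46 genes every 2D-EV library lay below every TGF-beta1 library (58.7%), and in 1, Pdlim2, every one lay above. Over all genes those shares were 6.23% and 6.13%, and among genes averaging at least 50 CPM 9.36% and 4.78%. When libraries were scaled by their totals only, the 27 became 22. Log2 fold changes and 95% intervals here and below are from edgeR, also where the adjusted p beside them is from DESeq2. Flna measured 1211, 1215 and 1246 CPM in TGF-beta1 and 1113, 1138 and 1123 CPM with 2D-EVs. The groups did not overlap, and the log2 fold change was -0.12 (95% interval -0.18 to -0.066, DESeq2 adjusted p = 0.00473). Actn1 measured 283, 278 and 295 CPM in TGF-beta1 and 244, 253 and 255 CPM with 2D-EVs, again without overlap, a log2 fold change of -0.19 (95% interval -0.28 to -0.10, DESeq2 adjusted p = 0.00671). Myh9 measured 1640.4, 1696 and 1733 CPM in TGF-beta1 and 1529.8, 1576 and 1491 CPM with 2D-EVs, a log2 fold change of -0.14 (95% interval -0.21 to -0.069, DESeq2 adjusted p = 0.0233). Pdlim5 was the other gene of the 4, at 366, 379.7 and 381 CPM and 338, 344 and 349.6 CPM, with -0.13 (95% interval -0.19 to -0.062, DESeq2 adjusted p = 0.0302). A crosslinking filamin, an alpha-actinin, a myosin heavy chain and a PDZ-LIM protein of the stress fibre thus stood lower with 2D-EVs by that method, where edgeR gave adjusted p of 0.169, 0.203, 0.239 and 0.239.

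**Figure D3:**
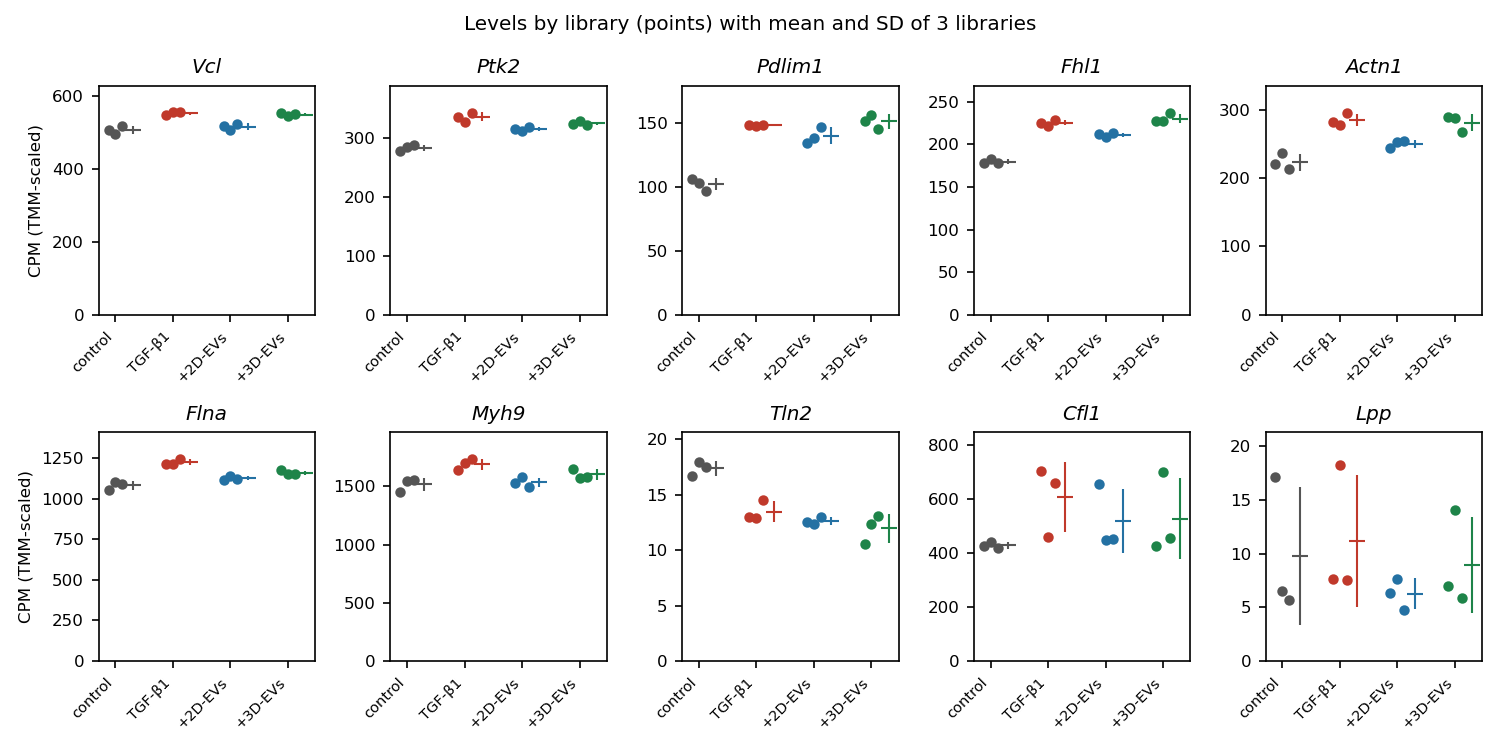
TMM-scaled CPM of 10 genes in each library (points) by group, with the mean and SD of the 3 libraries beside them, on axes that start at 0. In Vcl, Actn1, Flna and Myh9 the 2D-EV means and the higher 3D-EV means both sit between control and TGF-beta1. Tln2 is lower in the 3 groups given TGF-beta1, and the libraries of Cfl1 and Lpp spread within groups.

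Further members stood lower with 2D-EVs without a call. Vcl was at 518, 506 and 524 CPM with 2D-EVs, below all 3 TGF-beta1 libraries and overlapping the controls (508, 496 and 517 CPM), with a log2 fold change of -0.10 (95% interval -0.16 to -0.041) against TGF-beta1. Ptk2 was at 316, 313 and 319 CPM, below TGF-beta1 and above control in every library, with -0.091 (95% interval -0.15 to -0.031). Vasp was at 251, 257 and 260.1 CPM, with -0.11 (95% interval -0.17 to -0.041). These 3 genes had no overlap with TGF-beta1, and none passed the edgeR test. Srf was at 72.8, 84.6 and 83.1 CPM, where 1 library lay well below the other two, and its log2 fold change was -0.15 (95% interval -0.26 to -0.044). Actb was at 5725, 5832 and 6122 CPM, with -0.10 (95% interval -0.16 to -0.037), and Actg1 at 3613, 3843 and 4141 CPM, with -0.11 (95% interval -0.19 to -0.023). In both actins the highest 2D-EV library was the third, and in Actg1 it reached into the TGF-beta1 range. Tln1 and Pxn, which TGF-beta1 had left without a call, were at 383, 374 and 365 CPM and 269.9, 269 and 264 CPM with 2D-EVs, below all TGF-beta1 libraries. Zyx was at 211, 204 and 216 CPM, also below.

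The 5 genes that had fallen with TGF-beta1 gave mixed values. Tln2 was at 12.6, 12.3 and 13.0 CPM with 2D-EVs, with overlap and a log2 fold change of -0.094 (95% interval -0.28 to 0.088). Ezr was at 598, 605 and 579 CPM, with -0.009 (95% interval -0.076 to 0.058), and Lima1 at 341, 352 and 346 CPM, with -0.042 (95% interval -0.10 to 0.020). Pdlim4 was at 79.2, 78.8 and 78.4 CPM, below every TGF-beta1 library, with -0.091 (95% interval -0.18 to -0.0048). Pdlim2, at 23.2, 24.6 and 24.8 CPM, was the single gene with an estimate above 0, 0.21 (95% interval 0.072 to 0.35), and its 3 libraries were above TGF-beta1 and close to control. Diaph1, Csrp2 and Ezr had estimates within 0.01 of 0 on the log2 scale.

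The share of counts taken by the 46 genes was 2.46%, 2.51% and 2.57% in the 2D-EV libraries, each below the 3 TGF-beta1 libraries and overlapping the control range. Acta2, a smooth muscle marker that is no member, fell in the same contrast by 0.25 on the log2 scale (edgeR adjusted p = 0.0102), one of the 4 genes called. The part of cells with that expression pattern in the members' lower values was not tested. Among the 105 pathway genes outside the 46, edgeR called 0, 15 had an unadjusted p below 0.05, 68 were estimated below 0 and the median log2 fold change was -0.033.

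TGF-beta1 with 3D-EVs was compared with TGF-beta1 alone in the same way, using the same TGF-beta1 libraries. No member passed the test, and the median difference was smaller in size than with 2D-EVs. edgeR called 0 of 46 (0.0% of all genes), DESeq2 called 0 (0.0212% of all genes higher and 0.0282% lower) and limma-voom 0, and 5 had an unadjusted p below 0.05, against 7.24% of all genes. The estimate was below 0 for 35 of 46 genes (76.1%), against 50.1% of all genes, and the median log2 fold change was -0.024. Of genes averaging at least 50 CPM 49.6% were below 0, against 32 of the 40 members. Without TGF-beta1 + 3D-EVs replicate 3 the 35 became 29. In 4 genes every 3D-EV library was below every TGF-beta1 library (8.7% of the members and 6.83% of all genes), and in 1 every library was above (6.8% of all genes). Among genes averaging at least 50 CPM those shares were 8.39% and 8.73%, against 4 and 1 of the 40 members. Scaled by library totals only, the counts were 7 and 1. Nothing particular is read from these shares.

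The 4 lower genes, given as a description, were Src, Pxn, Flna and Srf. Src measured 171, 167 and 173 CPM in TGF-beta1 and 155, 155 and 155 CPM with 3D-EVs, where the 3 libraries lay within 1 CPM. Its log2 fold change was -0.13 (95% interval -0.20 to -0.068), and its edgeR adjusted p of 0.442 was the smallest of the members. Pxn measured 276, 277 and 281 CPM in TGF-beta1 and 266, 262 and 266 CPM with 3D-EVs, a log2 fold change of -0.074 (95% interval -0.13 to -0.016). Flna measured 1211, 1215 and 1246 CPM in TGF-beta1 and 1173, 1148 and 1150.2 CPM with 3D-EVs, a log2 fold change of -0.081 (95% interval -0.14 to -0.024). Srf measured 82.5, 86.2 and 81.4 CPM with 3D-EVs, a log2 fold change of -0.10 (95% interval -0.21 to 0.012). The higher gene was Enah, at 68.1, 67.2 and 66.9 CPM in TGF-beta1 and 69.9, 69.3 and 69.0 CPM with 3D-EVs, with 0.041 (95% interval -0.056 to 0.14).

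The genes that led the TGF-beta1 response overlapped between the groups. Pdlim1 was at 152, 157 and 146 CPM with 3D-EVs, with 0.029 (95% interval -0.062 to 0.12). Fhl1 was at 227, 227 and 237 CPM, with 0.032 (95% interval -0.031 to 0.10). Actn1 was at 289, 288 and 268 CPM, with -0.019 (95% interval -0.11 to 0.072). Each interval spans 0. Msn was at 805, 803 and 791 CPM, with -0.0027 (95% interval -0.059 to 0.054), and Vcl at 552, 544 and 549.5 CPM, with -0.010 (95% interval -0.067 to 0.047). The members took 2.62%, 2.65% and 2.52% of the counts in the 3D-EV libraries, of which the third stood closest to control. Of the 105 pathway genes edgeR called 0, 9 had an unadjusted p below 0.05, and 61 were estimated below 0 with a median of -0.013.

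The vesicle groups were then compared with each other, which leaves the TGF-beta1 libraries out. The vesicle libraries are the same as in the comparisons with TGF-beta1 alone, so these results are not independent of those. Most of the 46 genes were estimated higher with 3D-EVs than with 2D-EVs, and no single gene passed the edgeR test. The estimate was above 0 for 37 of 46 genes and below 0 for 9, against 50.3% of all genes below 0. Of genes averaging at least 50 CPM 42.7% were below 0, against 6 of the 40 members. As before, the estimates of the members are not independent of each other. The median log2 fold change was 0.059, where that of all genes was -0.00069. edgeR called 0 of 46, and 0.00705% of all genes, limma-voom called 0, DESeq2 called 3 higher (0.12% of all genes), and 17 had an unadjusted p below 0.05, against 6.9% of all genes. In 11 genes every 3D-EV library was above every 2D-EV library, and in 1 every one was below (5.67% and 5.68% of all genes, 8.2% and 4.23% of genes averaging at least 50 CPM). Scaled by library totals only, these counts were 7 and 3.

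**Figure D4:**
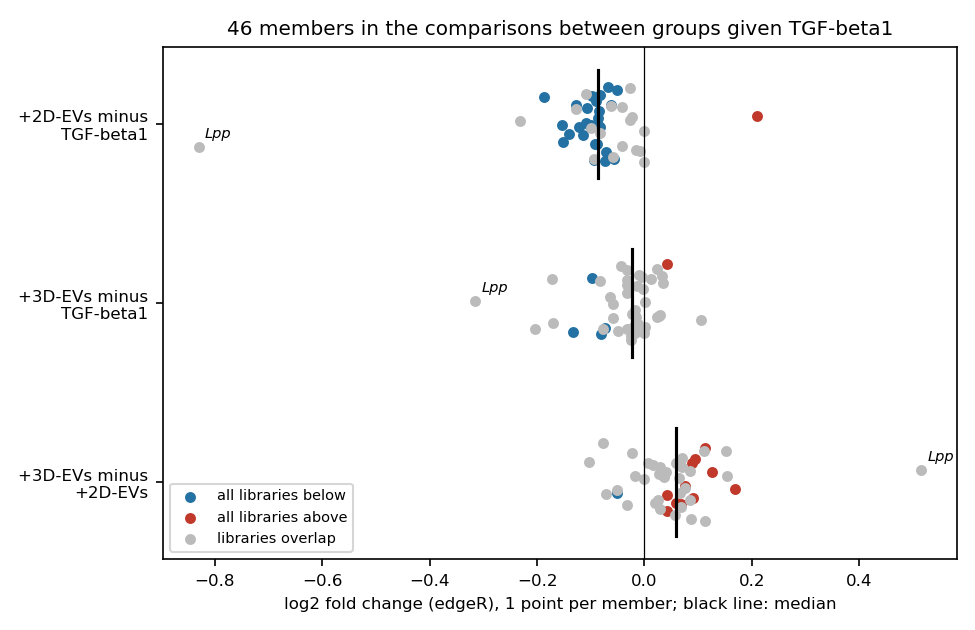
Log2 fold change of the 46 genes (1 point each, spread vertically for view) in the 3 comparisons between groups given TGF-beta1, with a black line at the median and colour for genes whose libraries do not overlap. For 2D-EVs minus TGF-beta1 45 points lie below 0 (median -0.086), for 3D-EVs minus TGF-beta1 35 do (median -0.024), and for 3D-EVs minus 2D-EVs 37 lie above 0 (median 0.059).

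The 3 genes called by DESeq2 were Actn1, Fhl1 and Pdlim5, given here with differences and 95% intervals from edgeR. Actn1 measured 244, 253 and 255 CPM with 2D-EVs and 289, 288 and 268 CPM with 3D-EVs, a log2 difference of 0.17 (95% interval 0.079 to 0.26, DESeq2 adjusted p = 0.0131, edgeR adjusted p = 0.593). Fhl1 measured 212, 209 and 213 CPM with 2D-EVs and 227, 227 and 237 CPM with 3D-EVs, a difference of 0.13 (95% interval 0.062 to 0.19, DESeq2 adjusted p = 0.0175, edgeR adjusted p = 0.457). Pdlim5 measured 338, 344 and 349.6 CPM with 2D-EVs and 379, 377 and 360.1 CPM with 3D-EVs, a difference of 0.11 (95% interval 0.047 to 0.18, DESeq2 adjusted p = 0.0462, edgeR adjusted p = 0.599). The other genes without overlap on the higher side were Vcl, Ptk2, Vasp, Csrp1, Flna, Myl12a, Cap1 and Msn, with differences of 0.042 for Flna, the smallest, to 0.093 for Myl12a. Src was the gene on the lower side, at 159, 163 and 161 CPM with 2D-EVs and 155, 155 and 155 CPM with 3D-EVs, a difference of -0.051 (95% interval -0.12 to 0.015). Pdlim7, one of the leading rises with TGF-beta1, overlapped between the vesicle groups, with a difference of 0.0062 (95% interval -0.077 to 0.090). The summed smooth muscle markers given above were also higher with 3D-EVs than with 2D-EVs, and their part in these differences was not tested.

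Each vesicle group was also compared with control, and members were called in both directions in each. These comparisons share the control libraries with each other and with the comparison of TGF-beta1 with control, so their values are given side by side without a test between them. With 2D-EVs 13 of 46 genes were higher and 4 lower than control (10.5% and 8.13% of all genes; edgeR), or 8 and 7 when scaled by library totals only. With 3D-EVs 21 were higher and 5 lower (12.2% and 10.8% of all genes), or 13 and 8 when scaled by library totals only. With that scaling 2787 of the 14184 genes were called in either direction with 2D-EVs and 3561 with 3D-EVs. Among genes averaging at least 50 CPM, 21.3% were higher and 12.1% lower with 2D-EVs, against 13 and 3 of the 40 members at that level. With 3D-EVs those shares were 25.2% and 14.0%, against 21 and 4 of the 40. In either direction 18.6% of all genes were called with 2D-EVs and 23.0% with 3D-EVs. With TGF-beta1 alone these numbers were 25 and 5, as given above. The estimate against control was below 0 for 13 of the 46 genes with 2D-EVs and for 12 with 3D-EVs, where 50.4% and 51.0% of all genes were below 0. Of genes averaging at least 50 CPM these shares were 43.9% and 40.6%, against 9 and 9 of the 40 members. Medians of the log2 fold change were 0.14 for TGF-beta1, 0.040 with 2D-EVs and 0.098 with 3D-EVs. Of the 105 pathway genes, 17 were higher and 11 lower with 2D-EVs, and 27 higher and 15 lower with 3D-EVs.

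**Figure D5:**
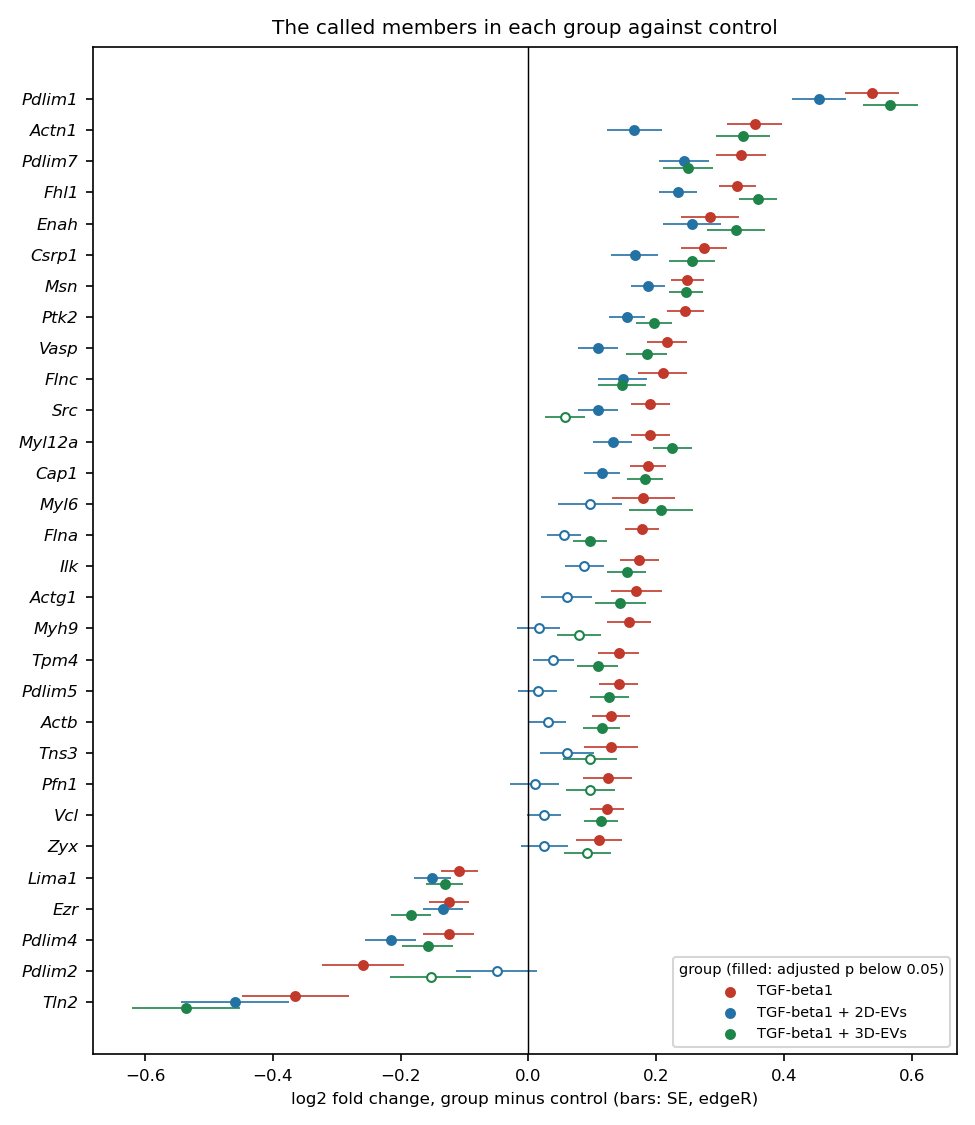
Log2 fold change against control (horizontal axis, bars give the SE) of the 30 genes called with TGF-beta1, in the TGF-beta1, 2D-EV and 3D-EV groups, with filled points for an edgeR adjusted p below 0.05. Pdlim1 is highest in all 3 groups, Tln2 is called lower in all 3, and Vcl, Flna, Actb and Actg1 are open for 2D-EVs.

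Pdlim1 was the gene furthest above control in all 3 groups, at 0.54 with TGF-beta1, 0.45 with 2D-EVs and 0.57 with 3D-EVs on the log2 scale. Fhl1 was at 0.33, 0.23 and 0.36, and Enah at 0.28, 0.26 and 0.33. Actn1 stood at 0.35, 0.17 and 0.34. Each of these 4 genes was called higher in each group. The call for Actn1 with 2D-EVs was lost when scaled by library totals only (0.0563), without control replicate 1 (0.0503) and without control replicate 3 (0.0693), edgeR adjusted p in brackets, from a range of 0.0012 to 0.0693. Among the genes called higher with TGF-beta1 and with 3D-EVs but not with 2D-EVs were Vcl (0.025, edgeR adjusted p = 0.593), Flna (0.055, edgeR adjusted p = 0.176), Actb (0.030, edgeR adjusted p = 0.551) and Actg1 (0.060, edgeR adjusted p = 0.353). For 3D-EVs the values of these 4 were 0.11, 0.10, 0.11 and 0.14. With 3D-EVs the call of Vcl was lost when scaled by library totals only (0.145), the call of Flna when scaled by library totals only (0.34), without control replicate 1 (0.0762) and without TGF-beta1 + 3D-EVs replicate 1 (0.0593), that of Actb when scaled by library totals only (0.186) and without TGF-beta1 + 3D-EVs replicate 2 (0.0594) and that of Actg1 when scaled by library totals only (0.137), without control replicate 3 (0.0517), without TGF-beta1 + 3D-EVs replicate 1 (0.0566) and without TGF-beta1 + 3D-EVs replicate 2 (0.0753), with ranges over the alternatives of 0.000384 to 0.145, 0.00237 to 0.34, 0.002 to 0.186 and 0.00255 to 0.137. Myh9 was called in neither vesicle group, at 0.016 with 2D-EVs and 0.079 with 3D-EVs (edgeR adjusted p = 0.809 and 0.113).

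Tln2, Pdlim4, Lima1 and Ezr were called lower than control in all 3 groups. Tln2 fell by 0.37 with TGF-beta1, by 0.46 with 2D-EVs and by 0.54 with 3D-EVs on the log2 scale, and its lowest library of all was the first with 3D-EVs, at 10.5 CPM. Ezr fell by 0.12, 0.13 and 0.18. Both vesicle calls of Tln2, Pdlim4, Lima1 and Ezr held in all 14 alternatives. Pdlim2 was called lower with TGF-beta1 and in neither vesicle group, at -0.050 with 2D-EVs (edgeR adjusted p = 0.659) and -0.15 with 3D-EVs (edgeR adjusted p = 0.101). Its contrasts with TGF-beta1 alone did not pass (edgeR adjusted p = 0.405 with 2D-EVs and 0.763 with 3D-EVs). Pxn was the fifth gene called lower with 3D-EVs, at -0.078 (edgeR adjusted p = 0.0485), and this call was lost in 10 of 14 alternatives, among them leaving out any 1 of the 6 libraries, over a range of 0.00171 to 0.153.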

How the data were processed

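RNA sequencing libraries of 12 NRK-52E samples (4 groups of 3) were used. The authors deposited whole-number read counts per gene, in 1 joint table and 12 library tables with the same values. Per the submitters' processing notes, fastp, HISAT2, StringTie and DESeq2 were used with build mRatBN7.2, while versions, counting settings and strand are not named there. Groups came from sample titles. The members and gene lists were chosen with earlier results of these data known.

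From the deposited counts, edgeR 4.0.16 (R 4.3.3) filtered low genes (filterByExpr, minimum count 10), scaled by TMM, and fitted 1 quasi-likelihood model of 4 group means (8 residual degrees of freedom). Each of the 6 comparisons was adjusted by Benjamini-Hochberg over 14184 genes, with a threshold of 0.05, and the scripts were tested on simulated data. CPM values were computed here and are TMM-scaled. Per-library values are given for the 10 largest called rises, the called falls with TGF-beta1, and Vcl, Tln1, Zyx, Pxn, Flna, Actb, Actg1, Myh9 and Srf. For the pathway lists up to 3 rises and 3 falls are named, and some items are not reported here. Other genes named with values (Cfl1, Lpp, Src and those called by DESeq2 or standing apart without overlap) were chosen after their values were seen, as was the split at a mean of 50 CPM.

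The alternatives were DESeq2 1.42.0, limma-voom (limma 3.58.1), RLE factors, library totals only, no filter, a minimum count of 50, the compared groups alone, a replicate block, and each library left out. Those for the counts of genes below 0 or without overlap were chosen after seeing the data. Within groups, replicates differed by more than counting noise (chi-square per degree of freedom 6.82 to 10.9). Totals of 32888125 to 39754319 counts per library limit precision little for the strongly expressed members, where the spread between libraries sets most of the error. For members with few counts, such as Tln2 (413 to 625) and Pdlim2 (705 to 945), counting noise is a larger part of it. Promoters came from the RefSeq table of build GRCr8. The planned comparison of member proteins was not made.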

Additional observations from a re-analysis of the deposited data

How the results depend on the processing

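Of the 30 genes called with TGF-beta1 against control, 20 kept their call in all 14 alternatives and 10 lost it in at least 1, and none reversed. Against control, 12 of 17 calls with 2D-EVs and 17 of 26 with 3D-EVs were kept throughout. DESeq2 called 4 of the 46 genes in 2D-EVs against TGF-beta1 and 3 in 3D-EVs against 2D-EVs, where edgeR called 0. Scaled by library totals only, 8 genes did not overlap between 3D-EVs and TGF-beta1, in place of 5. The cause of these differences was not tested. The count of genes estimated below 0 ran from 42 to 45 for 2D-EVs against TGF-beta1 and from 29 to 38 for 3D-EVs against TGF-beta1. With a replicate block, 28 genes were called with TGF-beta1 against control, 17 with 2D-EVs and 23 with 3D-EVs against control, and 0 in the comparisons between groups given TGF-beta1. Replicate numbers were shared between groups, but the 18 pairs of same-numbered libraries did not deviate together (correlations of -0.067 to 0.0448), and 5 of 12 libraries were closest in their deviations to one with the same number, so the number was not taken as a pairing. Leaving out 1 library gave 24 to 28 calls with TGF-beta1, 13 to 17 with 2D-EVs and 20 to 26 with 3D-EVs against control. With 3 libraries a group, changes of a few percent in a single gene are at the edge of what the test can call.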
